A study of Homo sapiens with 3 samples.

Results

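Rab GTPases are small switch proteins that mark the membranes of the secretory and endocytic routes. A Rab is active when it binds GTP. DENN-domain proteins load it with GTP, TBC-domain proteins make it hydrolyse that GTP, and effectors such as the Rab11 family interacting proteins (RAB11FIP) carry out its work in vesicle transport, tethering and recycling. The genes described here are those of the deposited exon-skipping tables whose symbol starts with RAB, TBC1D or DENND followed by a digit. They numbered 82 of 11222 genes over both tables, with 299 of 39434 distinct exons. Of these, 40 were Rab GTPases (the read-through locus RAB4B-EGLN2 among them), 6 were other genes that share the RAB name (3 RAB11FIP genes, RAB3GAP1, RAB3GAP2 and RAB3IL1), 25 were TBC1D genes and 11 were DENND genes. RAB4A and TBC1D19 were listed in the RS3 table only, RAB6A, RAB10, RAB15 and RAB17 in the RS2 table only, and 76 genes in both.

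BJ cells, a fibroblast line from human foreskin, were used with the wild-type genotype. They received by virus the OSKM factors, which are OCT4, SOX2, KLF4 and the MYC oncoprotein and reprogram cells towards pluripotency, and RNA was taken on day 8 of induction. All 3 groups carried OSKM. They differed in the siRNA, which was non-targeting, against the TGF-beta signal transducer SMAD3, or against the splicing factor SFRS11 (SRSF11), with 1 library each. The 2 tables compare the libraries coded RS2 and RS3 with the same comparator library, and no label ties a code to a siRNA. A difference is the inclusion level of an exon (the share of transcripts over that region that keep it) in RS2 or RS3 minus that in the comparator. Levels per library were not used, so no value per sample is given. An event, 1 row of a table, was called when its deposited FDR was under 0.05 and its difference was at least 0.1 in size. With no replicates these are comparisons of 2 libraries, not of conditions. The read depth is unknown. As to the cell type, 14 of 15 fibroblast marker genes and 0 of 8 blood and endothelial marker genes had a listed event in each table. So did 5 of 8 neural markers in each table, 4 (RS2) and 5 (RS3) of 10 epithelial markers and 4 and 6 of 10 pluripotency markers. The tables hold no expression levels, so these counts do not settle the cell type.

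Exons of 3 genes carried the calls, and their sequences are shown because each is a whole coding exon that the cells skipped more often in RS3. They were read from GENCODE release 29 transcripts on GRCh38. The files use hg19, so each listed exon was matched to GENCODE by gene identifier, exon length and the spacing to the other listed exons of the gene, not by position. The exons of TBC1D9B and TBC1D14 are added as the uncalled member exons with the smallest p-value in RS2 and RS3. Capitals mark the last 3 bases, which lie beside the splice site that follows the exon.
RAB11FIP3 (135 bases, exon 6 of 15 of a coding transcript, GRCh38 chr16:491134-491268, plus strand): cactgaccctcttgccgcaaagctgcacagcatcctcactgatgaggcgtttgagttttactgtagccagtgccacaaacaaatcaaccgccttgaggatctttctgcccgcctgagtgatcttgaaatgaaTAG
DENND5A (151 bases, exon 9 of 23 of a coding transcript, GRCh38 chr11:9170627-9170777, minus strand): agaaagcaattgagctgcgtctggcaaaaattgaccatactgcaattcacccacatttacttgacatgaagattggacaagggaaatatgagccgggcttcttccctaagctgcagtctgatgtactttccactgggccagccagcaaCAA
RAB1A (96 bases, exon 4 of 6 of a coding transcript, GRCh38 chr2:65090983-65091078, minus strand): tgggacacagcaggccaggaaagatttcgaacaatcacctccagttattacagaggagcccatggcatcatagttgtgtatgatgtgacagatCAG
TBC1D9B (51 bases, exon 19 of 22 of a coding transcript, GRCh38 chr5:179867445-179867495, minus strand): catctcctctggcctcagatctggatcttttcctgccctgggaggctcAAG
TBC1D14 (72 bases, exon 10 of 14 of a coding transcript, GRCh38 chr4:7009877-7009948, plus strand): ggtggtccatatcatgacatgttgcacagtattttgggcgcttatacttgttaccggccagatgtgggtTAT

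These exons differ in what their loss does to the reading frame. The RAB11FIP3 exon holds 45 codons, that of RAB1A 32, that of TBC1D14 24 and that of TBC1D9B 17, so skipping any of them keeps the frame. The DENND5A exon leaves a remainder of 1 base after division by 3, so skipping it shifts the frame. GENCODE lists the RAB11FIP3 exon in 2 of the 6 coding transcripts that span it and the RAB1A exon in 2 of 4. In contrast, both of the 2 coding transcripts spanning the DENND5A exon contain it. RAB1A has 2 annotated exons of 96 bases, and the match rests on the spacing of the 3 listed exons. The sequence of the matched exon opens with the codons of the conserved Rab segment known as switch II, which changes shape between the GDP and GTP forms. The letters AG end the RAB1A and RAB11FIP3 exons and that of TBC1D9B but not those of DENND5A and TBC1D14, read on the transcribed strand. They end 57.9% of 266 matched exons of these genes and 55.6% of 35144 matched exons of all genes.

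In RS2, exon inclusion differed in 1 of 80 genes of the group, RAB11FIP3, with lower inclusion. The background was 25 of 10485 genes (0.238%), or 0.143% with lower inclusion, and the count of 1 is too small to set the group apart. In RS3, 3 of 78 genes (3.85%) were called, RAB11FIP3, DENND5A and RAB1A, each in 1 event and each with lower inclusion. The background there was 3.06% of 10683 genes, and 2.33% with lower inclusion, so the share called in RS3 was near that of all genes. By events, 1 of 292 (0.342%) was called in RS2 against 0.0712% of all events, 0.0442% being lower. In RS3 it was 3 of 301 (0.997%) against 0.967%, 0.736% being lower and 0.23% higher. No member gained inclusion past the threshold in either table, where 0.0954% and 0.768% of all genes did.

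**Figure D1:**
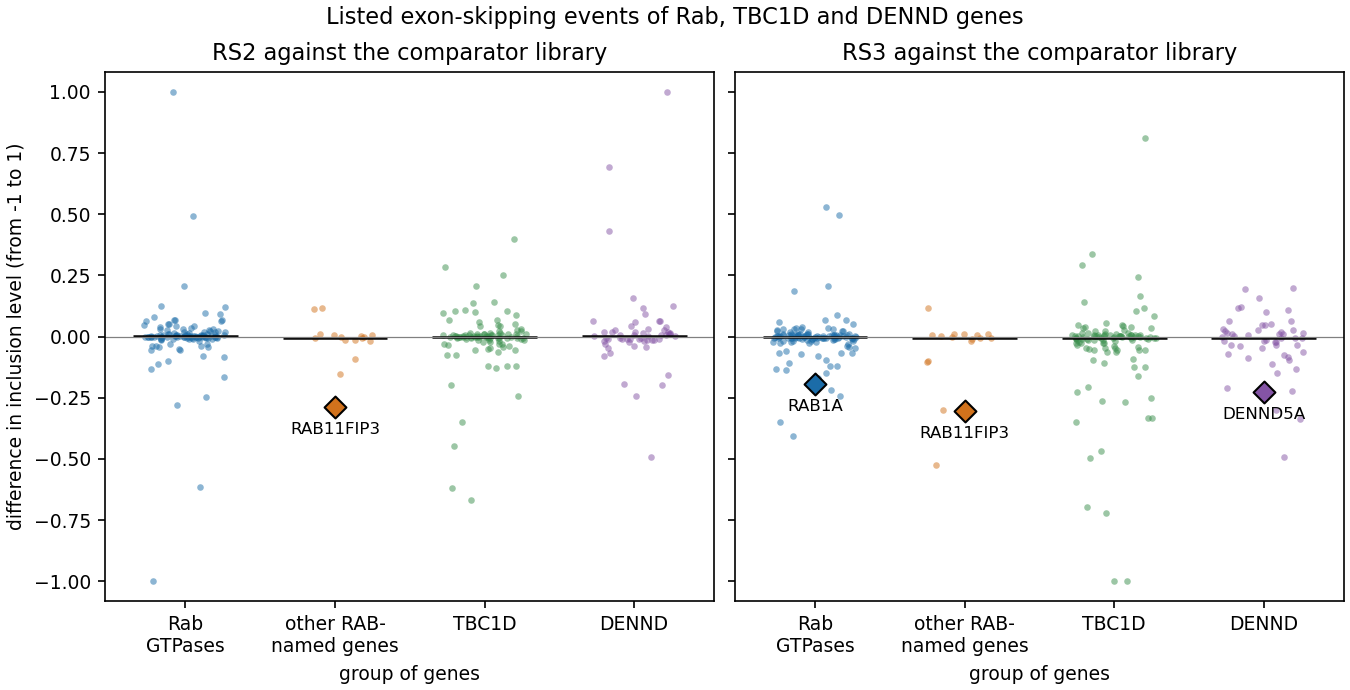
Difference in inclusion level (vertical axis, from -1 to 1) of every listed event, 1 point each, for Rab GTPases, other RAB-named genes, TBC1D and DENND genes in RS2 (left) and RS3 (right). Horizontal bars are medians and diamonds are called events, which lie at -0.286 in RS2 and at -0.304, -0.226 and -0.192 in RS3, nearer to 0 than the most extreme uncalled points.

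RAB11FIP3 encodes an effector of Rab11 and Arf GTPases that acts at recycling endosomes and in cytokinesis. Its 135-base exon (ENSG00000090565, hg19 chr16:541134-541268, plus strand) was listed in 1 row of each table. The authors' deposited table for RS2 has a difference of -0.286 (FDR 0.0270). For RS3 the authors' deposited table has -0.304 (FDR 0.00352), so the exon was called in both. Both comparisons share the comparator library, so the values are not independent of each other. All other rows of the gene lay nearer to 0, and none was called. Over the other RAB11FIP3 exons, the RS2 differences in the authors' deposited table were -0.014 (94 bases), 0.005 (95 bases), -0.002 (212 bases), -0.090 (150 bases, with an FDR of 1), 0.004 (36 bases) and -0.008 (156 bases). The RS3 differences in the authors' deposited table were 0.010, -0.020, -0.002, -0.012 and -0.004 for the exons of 95, 212, 36, 104 and 156 bases. The difference was thus largest, in both tables, at the 1 listed RAB11FIP3 exon that GENCODE leaves out of some spanning coding transcripts.

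The other RAB11FIP genes were thinly covered. RAB11FIP2, which links Rab11 to myosin V, had 1 exon of 60 bases, at -0.155 in RS2 and -0.524 in RS3 in the authors' deposited table (FDR 1 and 0.604). RAB11FIP1 had 1 exon, at -0.018 in RS2 and 0.004 in RS3 in the authors' deposited table. RAB3GAP1 and RAB3GAP2 are the subunits of the Rab3 GTPase-activating complex. A 115-base RAB3GAP1 exon was at 0.111 in RS2 and -0.302 in RS3 (FDR 1 in each) in the authors' deposited tables. A 36-base RAB3GAP2 exon was at 0.115 in both of the authors' deposited tables (FDR 1 in each). A 48-base RAB3GAP2 exon was at -0.104 in RS3 in the authors' deposited table (FDR 1). RAB3IL1, an exchange factor for Rab3, stayed between -0.013 and 0.012 over its rows in the authors' deposited tables.

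**Figure D2:**
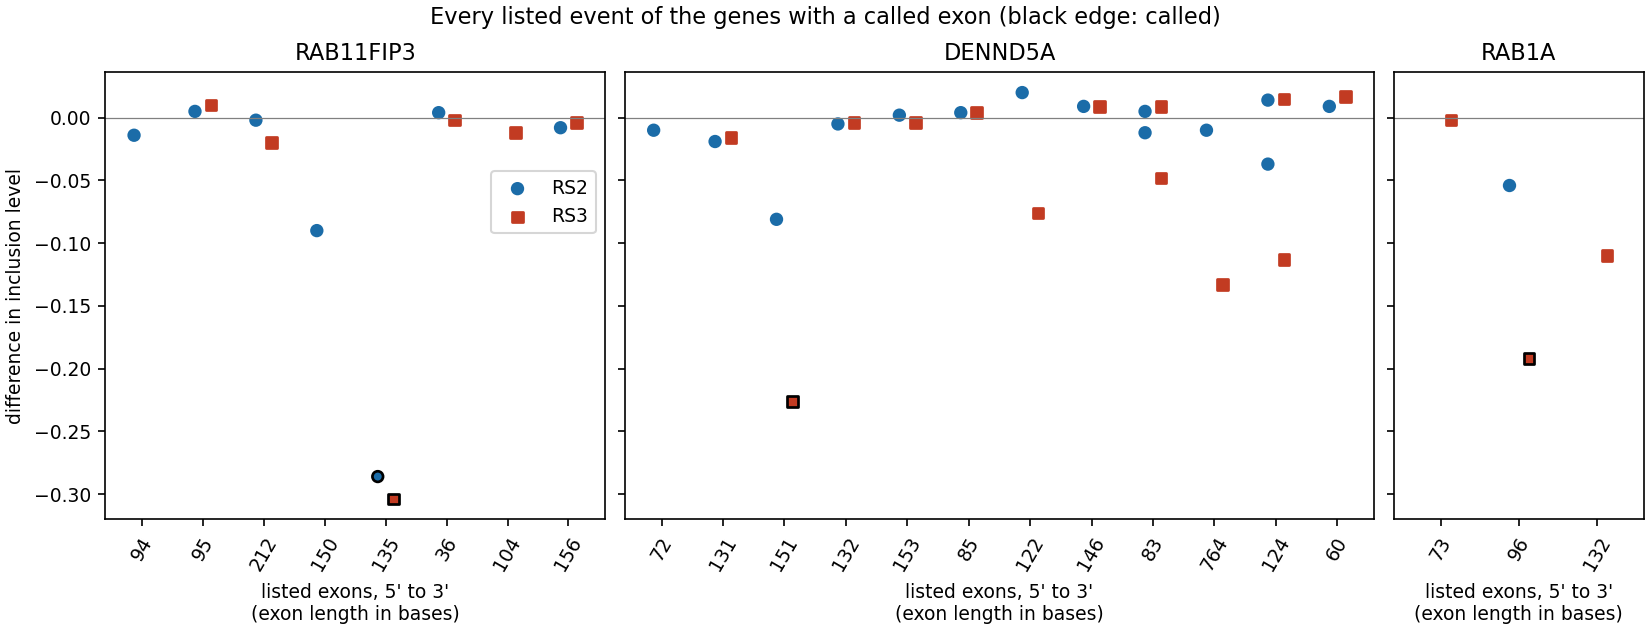
Differences in inclusion level (vertical axis) for every listed event of RAB11FIP3, DENND5A and RAB1A, with the exons in transcript order and labelled by length in bases, for RS2 (circles) and RS3 (squares). Black edges mark called events, which are the 135-base exon of RAB11FIP3 in both tables and, in RS3, the 151-base exon of DENND5A and the 96-base exon of RAB1A.

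DENND5A, a DENN-domain protein that binds Rab6 and acts as an exchange factor for Rab39, had the smallest p-value of the whole group. Inclusion of its 151-base exon (ENSG00000184014, hg19 chr11:9192174-9192324, minus strand) fell by 0.226 in RS3 in the authors' deposited table (FDR 5.23e-07). The same exon was at -0.081 in RS2 in the authors' deposited table (FDR 0.166), so it was not called there. Whether RS3 and RS2 differ at this exon was not tested. Exons near the 3' end of DENND5A also had negative RS3 rows that were not called. The 124-base exon was at -0.113 and 0.015 in its RS3 rows in the authors' deposited table (FDR 0.337 and 1). A 764-base form, which GENCODE lists only in a non-coding transcript with a retained intron, was at -0.133 in RS3 in the authors' deposited table (FDR 0.317). These forms overlap and share reads, so they are not separate observations. The DENND5A exons of 85, 132, 146 and 153 bases lay between -0.005 and 0.009 in both of the authors' deposited tables.

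The remaining DENND genes held no call, like most listed genes. DENND1A, an exchange factor for Rab35, had a 57-base coding exon at -0.083 in RS3 (FDR 0.239) and -0.020 in RS2 (FDR 1) in the authors' deposited tables. DENND4C, an exchange factor for Rab10, had its only exon at -0.223 in RS3 (FDR 0.287) and 0.062 in RS2 in the authors' deposited tables. DENND5B, the closest relative of DENND5A, had a 66-base coding exon at -0.245 in RS2 and -0.207 in RS3 in the authors' deposited tables (FDR 1 in both). The 70-base exon of DENND4B was at 0.043 and 0.063 in RS2 and at -0.096 and -0.007 in RS3 in the authors' deposited tables. DENND3, an exchange factor for Rab12, ranged from -0.047 to 0.065 over 11 RS2 rows and from -0.062 to 0.2 over 10 RS3 rows in the authors' deposited tables. A 1140-base exon of DENND2A was at -0.043 in RS2 in the authors' deposited table (FDR 0.977). All 8 DENND events with an unadjusted p under 0.05 in RS3 had lower inclusion, and 4 of these 8 were of DENND5A. Among all RS3 events with such a p, 68.3% were lower.

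RAB1A directs transport from the endoplasmic reticulum to the Golgi and takes part in autophagy. Its 96-base exon (ENSG00000138069, hg19 chr2:65318117-65318212, minus strand) was the only Rab GTPase exon called. Inclusion fell by 0.192 in RS3 in the authors' deposited table (FDR 0.000255). In RS2 it was at -0.054 in the authors' deposited table (FDR 1). The next exon of RAB1A, of 132 bases, was listed in RS3 alone at -0.110 in the authors' deposited table (FDR 0.585). A 73-base exon upstream of the called one, not shown to be its direct neighbour, was at -0.002 in RS3 in the authors' deposited table. RAB1B, the paralog with the same transport role, had 1 listed event, at 0.001 in RS2 and -0.008 in RS3 in the authors' deposited tables.

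Several Rab GTPases had exon inclusion close to that of the comparator. Of 35 Rab GTPases listed in both tables, 17 had every row within 0.05 of 0, and RAB1B, RAB5C, RAB7A, RAB8A, RAB11B and RAB13 had every row within 0.01. The 17 count the read-through locus RAB4B-EGLN2. The same share over all genes was not computed, so it is not known whether this one is unusual. RAB7A, the late endosome Rab, had 5 RS2 and 7 RS3 rows, which ranged from -0.007 to 0.000 in the authors' deposited tables. RAB5C, an early endosome Rab, ranged from -0.002 to 0.003 in the authors' deposited tables. Its relative RAB5B showed how values can scatter. A 103-base RAB5B exon had rows at 0.492 and 0.004 in RS2 and at 0.498 and 0.001 in RS3 in the authors' deposited tables, each with an FDR of 1. By role, 24 TBC1D genes were listed in both tables and 8 had every row within 0.05, as did 2 of 6 other RAB-named genes and 0 of 11 DENND genes. A gene with few rows meets this limit more easily. In RS2, 39 Rab GTPases had 117 rows, 24 TBC1D genes had 102 and 11 DENND genes had 57, so these counts do not rank the groups.

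The uncalled Rab exons with the smallest p-values lay partly near 0 and partly further from it. RAB23, known for its part in Hedgehog signalling, had an 86-base coding exon at -0.405 in RS3 (FDR 0.559) and -0.164 in RS2 (FDR 1) in the authors' deposited tables. The 72-base exon of RAB7L1 (current symbol RAB29, a Golgi Rab) had RS3 rows at -0.135 and -0.023 and an RS2 row at 0.003 in the authors' deposited tables. RAB31, which acts between Golgi and endosomes, had an 80-base exon at -0.061 and -0.013 in its RS3 rows (FDR 0.263 and 1) and at -0.017 in RS2 in the authors' deposited tables. RAB34, with 22 RS2 and 16 RS3 rows, was the most densely listed Rab. In RS2 its rows ranged from -0.28 to 0.03 in the authors' deposited table, 2 of them at least 0.1 in size. The 92-base RAB34 exon had the smallest RS2 p-value of the Rab GTPases, at -0.040 with an FDR of 0.369 in the authors' deposited table. For this exon, 1 of 3 RS3 rows was at 0.186 in the authors' deposited table. RAB6A, which acts in retrograde transport through the Golgi, was at -0.043 in its only row, in RS2, in the authors' deposited table. The RAB4B-EGLN2 rows lay between -0.028 and 0.017 in the authors' deposited tables. That locus overlaps RAB4B, so reads may be shared between them. It runs on into EGLN2, which is not a Rab gene, so part of its listed exons are not Rab exons.

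**Figure D3:**
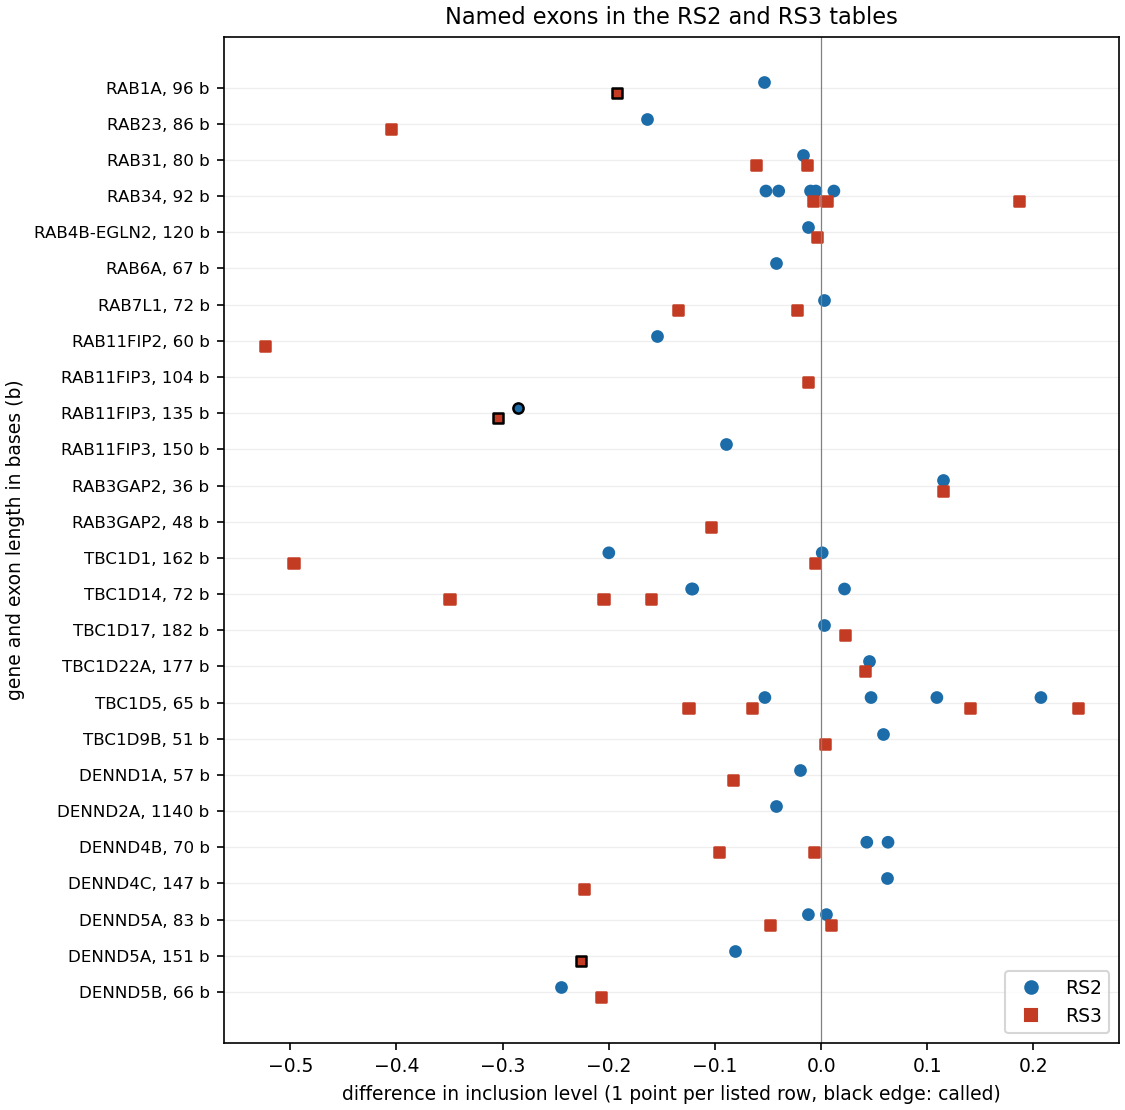
Difference in inclusion level (horizontal axis) of the 26 named exons, 1 point per listed row, in RS2 (circles) and RS3 (squares), with called rows edged in black. Rows of 1 exon spread widely, as for the 162-base TBC1D1 exon, whose RS3 rows lie at -0.497 and -0.006.

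TBC1D genes encode GTPase-activating proteins that switch Rabs off. None of the 25 had a called event, out of 102 events in RS2 and 108 in RS3. Of all events, 0.0712% were called in RS2 and 0.967% in RS3, so the lack of a call does not set the TBC1D genes apart. The closest to a call was the 51-base exon of TBC1D9B (ENSG00000197226, hg19 chr5:179294445-179294495, minus strand), which GENCODE lists in 1 of 5 spanning coding transcripts. It was at 0.058 in RS2 in the authors' deposited table (FDR 0.0825), and at 0.004 in RS3. The other TBC1D9B rows lay between -0.015 and 0.013 in the authors' deposited tables. TBC1D14, which regulates recycling endosomes in autophagy, had its 72-base exon in 3 rows of each table. They were at -0.160, -0.350 and -0.205 in RS3 (FDR 0.206, 0.576 and 0.976) and at -0.121, 0.022 and -0.122 in RS2 in the authors' deposited tables. All 3 RS3 rows of this exon were negative, and none was called. Rows of 1 exon may share reads, so they are not separate observations.

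TBC1D1, a Rab regulator of glucose transporter traffic, had a 162-base coding exon at -0.497 and -0.006 in RS3 and at -0.200 and 0.001 in RS2 in the authors' deposited tables. The first RS3 row had an FDR of 0.314. TBC1D5, which binds the retromer complex and acts on Rab7, had large differences in many rows. Of all its rows, 10 of 17 in RS2 and 9 of 16 in RS3 differed by at least 0.1, with no call. An untranslated 65-base TBC1D5 exon had RS2 rows from -0.053 to 0.207 and RS3 rows from -0.125 to 0.242 in the authors' deposited tables. The 182-base exon of TBC1D17 and the 177-base exon of TBC1D22A had small RS3 differences with small p-values, 0.022 (p = 0.0065) and 0.041 (p = 0.0359) in the authors' deposited table (FDR 0.218 and 0.565). Another TBC1D22A exon, of 113 bases, was at -1 in RS3 in the authors' deposited table (FDR 1). TBC1D3 and TBC1D3F are near-identical copies, and their values are uncertain.

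Size alone did not mark the called exons. A difference of at least 0.1 was listed for 48 of 292 member events (16.4%) in RS2 and 63 of 301 (20.9%) in RS3, against 19.2% and 21.2% of all events. Of these, 47 in RS2 and 60 in RS3 were not called, and the FDR was 1 for 47 and 36 of them. A size of 0.5 was reached by 7 member events in RS2 and 7 in RS3. They included an RS2 difference of -1 for RAB17 and of 1 for RAB8B, both with an FDR of 1 in the authors' deposited table. No member event had an FDR between 0.05 and 0.2 with a difference of at least 0.1, nor an FDR under 0.05 with a smaller difference.

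**Figure D4:**
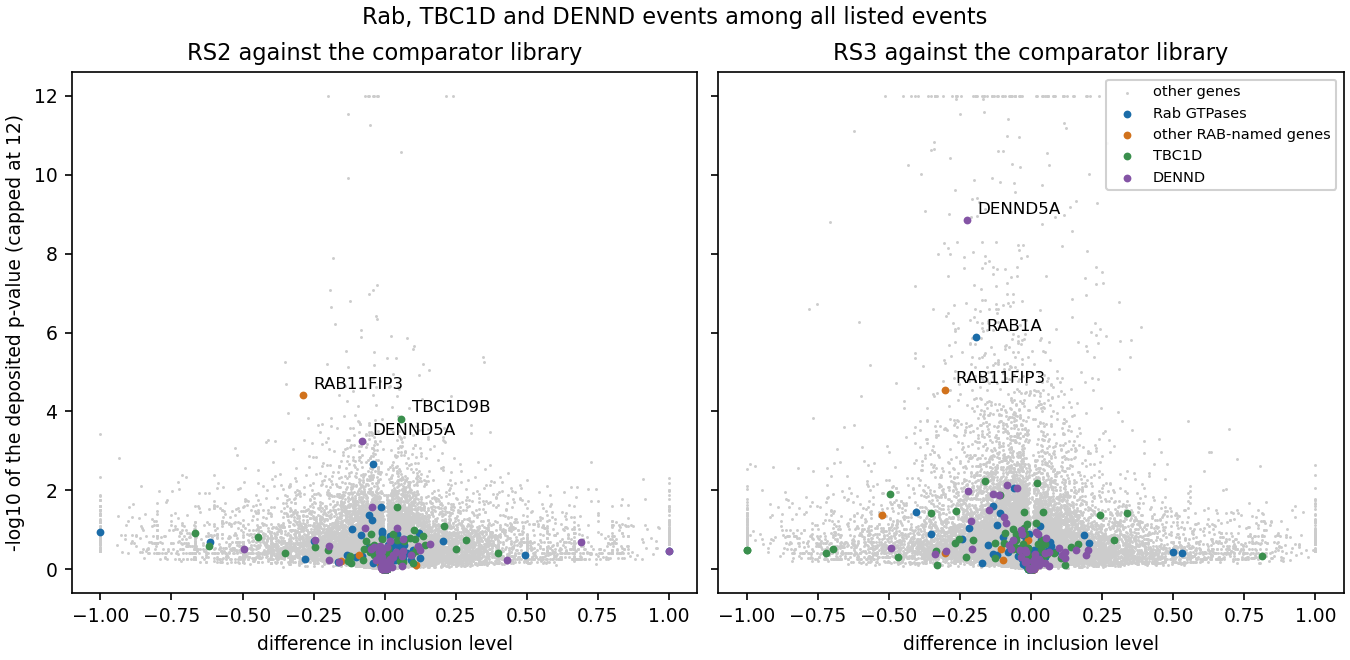
Difference in inclusion level (horizontal axis) against -log10 of the deposited p-value (vertical axis, capped at 12) for all listed events in grey and the members in colour, in RS2 (left) and RS3 (right). Members with a p-value under 0.001 are named, and most large differences sit near the bottom of each panel.

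Over all member events the median difference was 0.0005 in RS2 (quartiles -0.013 and 0.018), against 0 for all events. In RS3 it was -0.004 (quartiles -0.037 and 0.010), against -0.001 for all events (quartiles -0.027 and 0.014). Inclusion was lower than in the comparator for 56.1% of member events in RS3 and 51.1% of all events. The RS3 medians of the 4 groups were -0.002 for Rab GTPases, -0.004 for other RAB-named genes, -0.0045 for TBC1D and -0.0055 for DENND. An unadjusted p under 0.05 was listed for 25 member events in RS3 (8.31%, against 7.61% of all), 21 of them lower, where 5.2% of all events were lower with such a p. In RS2 it was listed for 8 (2.74%, against 4.52%), 6 of them lower, where 2.5% of all events were. These are descriptions, and the differences from the whole table were not tested.

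Exon structure of the group was close to that of the tables as a whole. Of the 299 exons, 126 (42.1%) held a whole number of codons by length, compared with 41.1% over both tables, and the median length was 111 bases against 120. GENCODE exons were matched for 266 (89.0%). Of these, 73.3% were fully coding, against 68.8% for all matched exons. Coding transcripts that span a member exon all contained it in 48.1% of cases, against 41.3%. Matched Rab GTPase exons were fully coding in 58.5%, fewer than the 82.0% of TBC1D and the 81.1% of DENND exons. The 106 matched Rab GTPase exons include 8 of the read-through locus RAB4B-EGLN2, which has no coding transcript over them and lowers the share. Exons that were only partly coding made up 17% of the Rab GTPase exons, against 0% for TBC1D and 3.77% for DENND. In RS3, a difference of at least 0.1 was listed for 18.0% of member events at exons in every spanning coding transcript and for 24.6% at exons in some of them. The same shares for all events were 13.1% and 22.5%.

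Rab pathway genes outside the name rule were taken from 4 lists: GDP dissociation and prenylation factors, other exchange factors, other GTPase-activating proteins, and effectors with tethers. In RS2, 1 of 118 listed genes was called (0.847%, against 0.238% of all genes), with higher inclusion. This was the effector MICAL3, an oxidoreductase of actin that binds Rab8, in which a 51-base exon rose by 0.209 in the authors' deposited table (FDR 0.0349). In RS3, 9 of 119 genes were called (7.56%, against 3.06% of all genes), with 9 of 10 called events lower. Of all called RS3 events, 313 of 411 were lower. By events, 10 of 600 were called in these lists, against 411 of 42518 (0.967%) over all genes. The lists were chosen with earlier results of these data known, and genes with more events have more chances of a call. These shares therefore do not set the pathway apart. Effectors made up 6 of the 9 called genes and 71 of the 119 listed, so their share called (8.45%) was near that of the 4 lists together (7.56%). None of the 5 listed GDP dissociation and prenylation genes was called in either table, and 5 genes are too few to set them apart.

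Among the called effector exons of RS3, the largest difference was again in MICAL3, at another 51-base exon (hg19 chr22:18295273-18295323), which the authors' deposited table gives at -0.451 with an FDR of 0. It was at -0.076 in RS2 in the authors' deposited table (FDR 1). The tripartite complex of RAB27A, melanophilin and myosin Va carries organelles along actin. Both partners of RAB27A were among the 6 of 71 listed effector genes called in RS3. The complex was not a list of its own, and a joint change of its members was not tested. Inclusion of a 120-base exon of MLPH (melanophilin) fell by 0.250 in 1 of 2 RS3 rows in the authors' deposited table (FDR 0.0043), while the other row was at 0.021. In MYO5A, exons of 81 and 9 bases fell by 0.306 and 0.156 in RS3 in the authors' deposited table. RAB27A itself had 3 rows between -0.067 and -0.017 in RS3 in the authors' deposited table (FDR 1). RABEPK, a Rab9 effector, was at -0.179 in its called RS3 row and at -0.079 and -0.012 in others in the authors' deposited table. GORASP1, which tethers Golgi stacks, fell by 0.208 in RS3 in the authors' deposited table and had no RS2 row for that exon. For MICAL2 the called RS3 row was at -0.113 (FDR 0.0484), but other rows of the same exon were at 0.085 and 0.059 in the authors' deposited table.

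Among regulators outside the name rule, EVI5L, a TBC-domain protein, had a 33-base exon (hg19 chr19:7921978-7922010) that fell by 0.411 in RS3 in the authors' deposited table (FDR 0.0253). For RS2 the authors' deposited table has it at -0.386, and the FDR of 0.166 missed the threshold. TRAPPC3, a core subunit of the TRAPP exchange factor for Rab1, had a 183-base exon at -0.136 in its called RS3 row and at -0.020 and -0.007 in others in the authors' deposited table. HPS1, part of the BLOC-3 exchange factor for Rab32 and Rab38, was the 1 pathway gene called with higher inclusion in RS3. Its 99-base exon rose by 0.195 in the authors' deposited table (FDR 3.01e-05) and was at 0.040 in RS2 (FDR 1).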

How the data were processed

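Each of 2 deposited tables gives skipped-exon events with the authors' p-value, FDR and inclusion difference, per the file headers. STAR, FastQC and hg19 are named in the submitters' processing notes, and the event caller is not named in the sources used here. The 4 columns of inclusion level per library match no sample label and were not used, apart from a look at their order to settle the sign: the difference is the level listed first minus the second, which both tables share. Coordinates are hg19, counted from 1. GENCODE release 29 exons were matched per gene where at least 2 exons shared 1 spacing. Symbols turned into dates were restored. Python 3.11.15 and pandas 2.3.3 were used, and code was tested on simulated data.

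Named exons were all called member exons, the 3 uncalled with the smallest p-value per group and table, the 3 genes per group with most exons (used for spread), events near the thresholds, and called pathway genes. Members and lists were chosen with earlier results of these data known. Alternatives changed the FDR and difference limits, the adjustment, the rows used and the membership. The setting of only coding exons was added after the data were seen.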

Additional observations from a re-analysis of the deposited data

How the results depend on the processing

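The RAB11FIP3 call in RS2 was lost with an FDR under 0.01, which left 0 member genes, 0 member events and 0 pathway genes called in RS2 (0.162% of all genes were called). The RAB1A call in RS3 (difference -0.192) was lost with a minimum difference of 0.2, which left 2 member genes, and the pathway genes called in RS3 went from 9 to 5. Pathway genes called in RS3 were also 5 when only exons in a single row were used, and those called in RS2 went from 1 to 2 with an FDR under 0.1. With Rab GTPases alone, 0 genes were called in RS2 and 1 in RS3. Of the alternative values of counts, medians and shares, 43 stayed within 1.5 times of the count or within the spread. The fall to 2 member genes in RS3 is counted among these 43. For medians the spread was the quartile range of single events, a limit that a median meets easily. Adjusting the p-values anew by Benjamini-Hochberg gave the same counts as the deposited FDR (29 called events in RS2 and 411 in RS3). That setting was therefore no separate check of the calls. No paired analysis was possible because each group had 1 library, and no library could be left out for the same reason. The read depth behind each value is unknown, and a difference that missed the threshold is not shown to be absent.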

Other observations

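Some member exons had the same difference in both tables. Of 175 member exons that took 1 row per table, 27 (15.4%) were listed with identical non-zero differences in RS2 and RS3, as were 14.8% of 22770 such exons of all genes. Of the 27, 5 were at least 0.1 in size, in DENND2D, DENND4A (2 exons), RAB14 and RAB3GAP2. The 51-base DENND2D exon was at -0.494 in both of the authors' deposited tables, with an FDR of 1 in each. Both tables use the same comparator library, so these are not repeated measurements.

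RAB22A, an endosomal Rab, was listed with opposite signs in the tables. It had an 82-base exon at 0.098 in RS2 (FDR 1) and -0.219 in RS3 (FDR 0.824) in the authors' deposited tables. TBC1D12, a relative of TBC1D14, was listed with different exons in the tables, at -0.667 and -0.351 in RS2 and at -0.334 and -0.331 in RS3, each with an FDR of 1 in the authors' deposited tables. None of these events was called, and RS2 was not tested against RS3. The genes of this paragraph were chosen after their values were seen.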
